A study of Mus musculus with 13 samples.

Results

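Of 13 arrays of left ventricular RNA, 8 carried no raised LXRα message, and the 4 of them titled TAC are set here against the 4 titled sham. TAC is transverse aortic constriction, a surgical narrowing of the aorta that loads the left ventricle with pressure, and sham is the same operation without the narrowing. The 8 arrays were chosen by a reading of the arrays themselves: the brightest probe for Nr1h3, the gene of LXRα, had a deposited signal under 1000, whatever genotype the title gave. The highest value inside that limit was 396.7 and the lowest outside it 25186.7. The 5 arrays outside it entered the normalization, a single comparison near the end and some of the alternative settings. Because Nr1h3 chose the arrays, its values are a description and carry no test.

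The mice were male C57BL/6 of 4 months by their labels, and tissue was taken 5 weeks after surgery. LXRα-Tg mice carry murine LXRα behind the αMHC promoter, which is active in cardiomyocytes, and Wt mice were their littermates. The 8 arrays were 2 titled Wt sham (replicates 1 and 2), 2 titled LXRα-Tg sham (1 and 2), 3 titled Wt TAC (1, 3 and 4) and 1 titled LXRα-Tg TAC (3). The 5 arrays outside the limit were titled Wt sham (3), LXRα-Tg sham (3), Wt TAC (2) and LXRα-Tg TAC (1 and 2). The replicate numbers are running numbers. The labels do not say that each array came from its own mouse, so the p-values below measure the spread between these arrays. The series was described with 3 per group, yet 4 of its arrays were titled Wt TAC, and none was dropped.

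Pressure overload is known to thicken the ventricular wall. Loaded cardiomyocytes secrete natriuretic peptides and switch on contractile genes of the fetal heart, fibroblasts lay down collagen, and the use of fatty acids gives way in part to glucose. LXRα is a nuclear receptor that senses oxysterols and turns on genes of cholesterol export and fatty acid synthesis.

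On the 8 arrays the Nr1h3 signal was 166, 310.2, 163 and 397 on the sham arrays and 269.6, 341, 289.7 and 290.4 on the TAC arrays. That order of arrays, Wt sham 1 and 2 and LXRα-Tg sham 1 and 2, then Wt TAC 1, 3 and 4 and LXRα-Tg TAC 3, holds for every list of signals below. A signal is the background-subtracted intensity as deposited, and a log2 difference is TAC minus sham after background correction and quantile normalization, given with the standard error (SE) of the limma fit (n = 4 each). Thus the 3 arrays titled LXRα-Tg went against their genotype title by Nr1h3. Whether their surgery titles hold was not tested, so results are also given for the titled Wt arrays alone (2 sham against 3 TAC) and without the 2 titled LXRα-Tg sham arrays.

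The tissue label held: all 9 markers of ventricular cardiomyocytes on the array were detected on all 8 arrays, among them Myl2, the ventricular regulatory light chain, at 18427.4 to 33110.4. Detected probes numbered 9454 to 10392 per array. Eif2s3y, a gene of the Y chromosome, read −3.9 on Wt sham 1 and −1.6 on LXRα-Tg TAC 3, against the label of male. On the other 6 it read 128.0 to 449. Xist, the X chromosome transcript of female cells, was detected on those 2 arrays alone, at 32 on Wt sham 1 and 24.8 on LXRα-Tg TAC 3. The sex of the mice was not tested further. Wt sham 1 is also 1 of only 2 sham arrays in the 2 smaller fits named above. The 8 arrays lay on 2 slides, slide 1 with 3 sham arrays and 1 TAC array (Wt TAC 1) and slide 2 with 1 sham array (LXRα-Tg sham 2) and 3 TAC arrays, so slide and surgery were partly aligned. After normalization, 406 genes (5.44%) lay higher on all 4 slide 1 arrays than on all 4 slide 2 arrays and 329 (4.41%) lower. In whole left ventricle, fewer cells of a type and less RNA per cell cannot be told apart.

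No gene of 7466 passed the test of TAC against sham. With limma and Benjamini-Hochberg adjustment, 0 genes (0%) passed an adjusted p of 0.05, and the lowest adjusted p was 0.66. At an unadjusted p under 0.05 there were 538 genes (7.21%), 315 of them higher in TAC (4.22%) and 223 lower (2.99%), and the methods' t-test, run unpaired, gave 525 before adjustment and 0 after it. All 4 TAC arrays lay above all 4 sham arrays for 193 genes (2.59%) and below them for 91 (1.22%), 284 genes in all (3.8%). The median log2 difference over all genes was 0.03, and 56.3% of them lay above 0. The count of called genes stayed at 0 in the titled Wt arrays alone, without the titled LXRα-Tg sham arrays, within either slide and with slide in the model. Every log2 difference between TAC and sham named below is therefore a value that did not pass the test.

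The natriuretic peptides were not higher on the TAC arrays as a group. Nppa, which encodes atrial natriuretic peptide, had signals of 6418, 6890.1, 32019 and 27063 on the sham arrays and 7289, 7156, 19334 and 10763 on the TAC arrays. The 2 highest were the titled LXRα-Tg sham arrays, Wt TAC 4 came next, and the other 3 TAC arrays lay above both Wt sham arrays, LXRα-Tg TAC 3 the most. Its log2 difference was −0.46 ± 0.53 (adjusted p = 0.844). It was 0.40 in the titled Wt arrays, 0.51 without the titled LXRα-Tg sham arrays, −0.79 on slide 1 and −1.18 on slide 2.

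Nppb, which encodes brain natriuretic peptide, read 5077, 9076, 23114 and 20466 on the sham arrays and 5981, 7533, 19910.4 and 4677 on the TAC arrays. Again both titled LXRα-Tg sham arrays and Wt TAC 4 stood above the other 5, and LXRα-Tg TAC 3 was the lowest of all 8. Nppb differed by −0.63 ± 0.50 over the 8 arrays and 0.28 in the titled Wt arrays. Corin, the membrane protease that cuts the precursor of atrial natriuretic peptide, ran in the opposite order, with 2244, 2095, 1107 and 1353 on the sham arrays and 2566, 2157, 1519 and 1819.6 on the TAC arrays. The 3 arrays that were highest for Nppb were the 3 lowest for Corin, and its log2 difference was 0.24 ± 0.30. Furin, the convertase that processes the Nppb precursor, had a log2 difference of 0.35 ± 0.22 by its brighter probe and 0.03 by the other. Of 7 listed genes of natriuretic peptides and their supply, 6 were measured, 4 of them above 0, with a median of 0.05.

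Nppa, Myl4 and Sln are also abundant in atrial muscle, and the atrial markers differed between arrays. Sln, which encodes sarcolipin, a small inhibitor of the calcium pump in atria, read −3.8, 687, 468 and 1077 on the sham arrays and 741, 459, 806 and 1202 on the TAC arrays. Myl4, the atrial essential light chain, read 94.6, 3452, 3039.9 and 4858 on the sham arrays and 3369, 1922, 4366 and 5699 on the TAC arrays. Wt sham 1 stood alone at the bottom for both, below all TAC and all other sham arrays. Over the 7 measured atrial markers of 8 on the array, Nppa among them, the mean log2 level, centred on the 8 arrays, was −2.57 to 0.69 on the sham arrays and −0.31 to 1.12 on the TAC arrays. With the mean of the markers other than Nppa as a covariate, an alternative added after the values were seen, the log2 difference of Nppa was −0.83 and that of Nppb −0.94. Mybphl, an atrial relative of myosin-binding protein, had a log2 difference of 1.03 ± 0.76 and Sln one of 1.48 ± 1.02, and on slide 2, without Wt sham 1, they had −0.26 and −0.13.

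The fetal contractile genes followed the same arrays. Myh7, the slow β-myosin heavy chain of the fetal mouse ventricle, read 33.1, 63.1, 890.2 and 764 on the sham arrays and 83.8, 45.7, 252 and 32.3 on the TAC arrays. The titled LXRα-Tg sham arrays were far above the others, Wt TAC 4 was next, and the other 3 TAC arrays overlapped the Wt sham arrays. The log2 difference was −1.26 ± 0.87 (adjusted p = 0.739), 0.70 in the titled Wt arrays and −2.71 on slide 2. Acta1, skeletal α-actin, which the loaded heart re-expresses, read 1255, 6559.7, 22742 and 26379 on the sham arrays and 3332, 11571, 23813 and 5517 on the TAC arrays. Low and high arrays occurred in both groups, and its log2 difference of −0.06 ± 0.89 turned to 1.53 in the titled Wt arrays. Myh6, the adult fast α-myosin and the source of the transgene's promoter, read near the top of the range. Its signals were 25067, 24936, 20953 and 19635 on the sham arrays and 25459.9, 21761, 23222 and 22084 on the TAC arrays. The log2 difference was 0.06 ± 0.15, and −0.86 by its other probe. That probe read 2747.6 to 3496.7 on the slide 1 arrays and 859.5 to 1368.9 on the slide 2 arrays, sham and TAC alike. Of 17 measured contractile genes, 7 lay above 0 (beside 56.3% over all genes), and the median was −0.07. At an unadjusted p under 0.05, 0 lay higher and 1 lower, beside 4.22% and 2.99% over all genes.

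**Figure D1:**
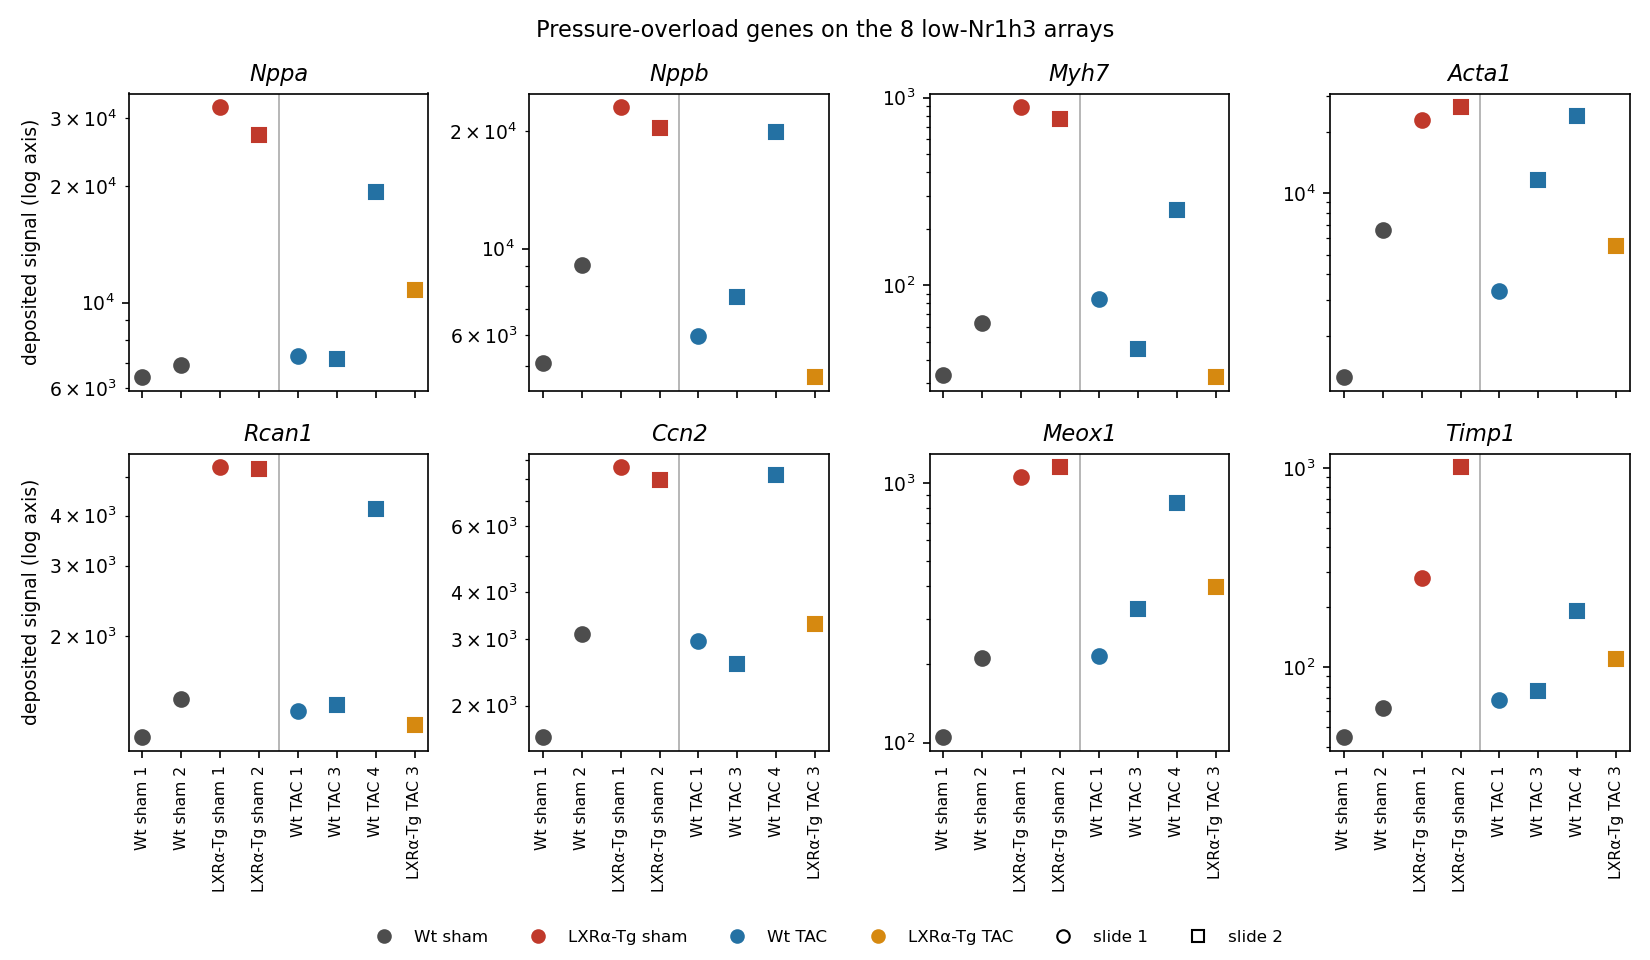
Deposited signal (log axis) of 8 genes known to respond to pressure overload, 1 point per array, grouped by title, with circles for slide 1 and squares for slide 2. The titled LXRα-Tg sham arrays and Wt TAC 4 are the 3 highest in every panel, and the other TAC arrays lie among or near the Wt sham arrays.

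Proteins of the Z-disc, the anchor of the sarcomere and a site of stretch sensing, gave a median of −0.16 over 16 measured genes, 4 of them above 0. Ankrd1, a titin-binding ankyrin repeat protein induced by stretch, read 6118, 8313, 12339.9 and 17893 on the sham arrays and 11238, 11396, 14804 and 8597 on the TAC arrays. The 3 titled Wt TAC arrays lay above both Wt sham arrays, and the titled LXRα-Tg sham arrays lay among or above them. Its log2 difference was 0.05 ± 0.25, −0.68 by its other probe and 0.55 in the titled Wt arrays. Synpo2l, a Z-disc protein that binds α-actinin, read 74.5, 88.5, 335 and 257 on the sham arrays and 78.8, 88, 167 and 37.1 on the TAC arrays. Its highest arrays were again the titled LXRα-Tg sham pair and Wt TAC 4, and its log2 difference was −0.78 ± 0.40.

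The promoters of 3 of these genes and of Igtp, described further on, are printed because the first 3 genes were high on the same few arrays, while Igtp stands for the interferon list, and because factors tied to overload or interferon are known by short motifs. They are the 250 bases before the gene start, from RefSeq on GRCm38.p6, at chr4:148000472-148000721 (+) for Nppa, chr19:36119845-36120094 (−) for Ankrd1, chr8:123894776-123895025 (−) for Acta1 and chr11:58199306-58199555 (+) for Igtp. Capitals mark matches on either strand to GATAA (GATA factors), CATTCC (TEAD factors), the CArG box (serum response factor) and a paired GAAA, that is 2 copies of GAAA with 2 bases between them (interferon response elements).
Nppa: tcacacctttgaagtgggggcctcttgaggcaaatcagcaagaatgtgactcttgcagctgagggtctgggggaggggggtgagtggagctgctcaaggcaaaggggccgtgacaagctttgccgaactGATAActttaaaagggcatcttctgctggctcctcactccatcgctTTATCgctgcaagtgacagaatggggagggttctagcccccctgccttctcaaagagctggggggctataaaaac
Ankrd1: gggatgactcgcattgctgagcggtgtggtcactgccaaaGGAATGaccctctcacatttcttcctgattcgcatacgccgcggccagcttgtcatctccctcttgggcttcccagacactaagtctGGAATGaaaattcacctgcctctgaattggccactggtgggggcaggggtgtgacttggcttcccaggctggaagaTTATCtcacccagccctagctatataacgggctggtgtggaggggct
Acta1: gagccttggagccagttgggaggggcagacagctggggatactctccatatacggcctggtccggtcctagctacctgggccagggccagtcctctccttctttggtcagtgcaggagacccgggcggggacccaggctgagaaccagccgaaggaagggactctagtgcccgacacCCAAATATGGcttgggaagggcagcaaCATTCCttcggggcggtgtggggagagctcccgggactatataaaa
Igtp: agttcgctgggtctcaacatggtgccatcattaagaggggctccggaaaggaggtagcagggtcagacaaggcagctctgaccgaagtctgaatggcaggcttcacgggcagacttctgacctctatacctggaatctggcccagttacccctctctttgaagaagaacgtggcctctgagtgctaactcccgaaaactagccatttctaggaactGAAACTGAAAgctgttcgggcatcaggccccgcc
Nppa held 2 GATAA matches, 116 and 70 bases before the start. Ankrd1 held CATTCC matches at 204 and 117 bases and GATAA at 42, Acta1 a CArG box at 63 and CATTCC at 40, and Igtp a paired GAAA at 24. No matches overlapped. Of 32851 promoters of the same length, 22.6% held GATAA, 12.6% CATTCC, 1.47% a CArG box and 2.98% a paired GAAA. A match is a description of the letters and not of a bound site.

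Signalling genes of hypertrophy differed in which arrays were high. Rcan1, a target and regulator of the phosphatase calcineurin, read 1122, 1394, 5279 and 5217 on the sham arrays and 1304, 1353, 4143 and 1203 on the TAC arrays. Both titled LXRα-Tg sham arrays and Wt TAC 4 formed a high set, well apart from the other 5, and the log2 difference was −0.61 ± 0.52 by the brighter probe and −0.92 by the other. Ppp3ca, the catalytic subunit of calcineurin, read 302, 415, 414 and 607 on the sham arrays and 819, 620.2, 498 and 432 on the TAC arrays. Here Wt TAC 1 was highest and Wt sham 1 lowest, and the groups overlapped. The log2 difference was 0.41 ± 0.16, or 0.84 on slide 1 and 0.08 on slide 2.

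Mef2c, a transcription factor of muscle differentiation and hypertrophy, read 257, 376, 425 and 481 on the sham arrays and 722, 715, 438 and 374 on the TAC arrays. Wt TAC 1 and 3 stood above the rest, while Wt TAC 4 and LXRα-Tg TAC 3 lay within the sham range. Its log2 difference was 0.49 ± 0.19 (adjusted p = 0.682), with 0.68 and 0.29 by its other probes. Pik3r1, the p85α regulatory subunit of phosphoinositide 3-kinase, read 721, 733, 537 and 682 on the sham arrays and 1781, 1421, 647 and 1047 on the TAC arrays. All TAC arrays but Wt TAC 4 lay above all sham arrays, and the log2 difference was 0.75 ± 0.30, with 0.78 by the other probe. Gata4, a cardiac zinc-finger factor, was near the floor at 21.5, 37.3, 47.7 and 39.8 on the sham arrays and 32.9, 26.6, 57.6 and 26.8 on the TAC arrays, with a log2 difference of 0.05 ± 0.16. Of 24 measured signalling genes, 18 lay above 0 (75%, beside 56.3% over all genes). Their median was 0.14 and ranged from 0.07 to 0.25 over the alternatives. At an unadjusted p under 0.05, 3 (Ppp3ca, Mef2c and Pik3r1) lay higher and 0 lower, beside 4.22% and 2.99% over all genes.

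Many matrix genes were also high on the titled LXRα-Tg sham arrays, which were the 2 highest of the 8 for 4 of 11 collagens and 10 of 22 matricellular, elastic fibre and proteoglycan genes (7.7% over all genes). Ccn2, connective tissue growth factor, read 1648, 3097, 8593 and 7948 on the sham arrays and 2974, 2587, 8213 and 3303 on the TAC arrays. Meox1, a homeobox factor of activated cardiac fibroblasts, read 105, 211, 1052 and 1149 on the sham arrays and 216, 327, 835 and 399 on the TAC arrays. Both genes were lowest on Wt sham 1, and Wt TAC 4 was the highest of the TAC arrays. The log2 difference of Ccn2 was −0.24 ± 0.50 and that of Meox1 −0.10 ± 0.64, and in the titled Wt arrays they were 0.57 and 1.03.

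Comp, an oligomeric protein that binds collagen, read 11.7, 29.9, 226 and 396 on the sham arrays and 46.3, 56.4, 100.4 and 118 on the TAC arrays. Mfap4, a microfibril-associated glycoprotein, read 21.3, 64.7, 356 and 418 on the sham arrays and 52.5, 112, 148 and 140.2 on the TAC arrays. In both, all 4 TAC arrays exceeded Wt sham 1, the titled LXRα-Tg sham arrays exceeded all TAC arrays, and the TAC values lay between. Mgp, matrix Gla protein, an inhibitor of calcification, repeated that order at high signal, with 4632, 5350.4, 15799 and 22171 on the sham arrays and 6480.0, 8373, 10976 and 9184 on the TAC arrays. Its log2 difference was −0.26 ± 0.44, and 0.53 in the titled Wt arrays. Mfap5, another microfibril glycoprotein, had −0.56 ± 0.50 and 0.28.

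Timp1, an inhibitor of matrix metalloproteinases, read 44.5, 62.6, 281 and 1009.6 on the sham arrays and 68.5, 76, 191 and 109 on the TAC arrays. LXRα-Tg sham 2 alone exceeded 1000, and all TAC arrays lay between the Wt sham and the titled LXRα-Tg sham arrays. Timp1 differed by −0.67 ± 0.69 with the brighter probe and −0.68 with the other. Timp3, the matrix-bound inhibitor of the same family, had 0.42 ± 0.20, but 0.16 with slide as a block. It was above 0 in all 28 alternatives, with 0.30 on slide 1 and the lowest value, 0.03, on slide 2. Mmp14, a membrane-anchored matrix metalloproteinase, had −0.28 ± 0.26. Lox, which crosslinks collagen and elastin, had −0.55 ± 0.35.

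Col1a1, the α1 chain of type I collagen, read 139.6, 262, 468 and 862 on the sham arrays and 217, 341, 495 and 253 on the TAC arrays. LXRα-Tg sham 2 was highest and Wt sham 1 lowest, and the TAC arrays lay inside that range. The log2 difference was −0.18 ± 0.37. Col3a1, the α1 chain of type III collagen, read 30.3, 44.5, 181 and 54.3 on the sham arrays and 14.5, 22.5, 45 and 15.6 on the TAC arrays, a low signal. After normalization all 4 TAC arrays lay below all 4 sham arrays, with −0.97 ± 0.37 by this probe but 0.03 by its other probe. Of 11 measured collagens 1 lay above 0, and the median was −0.18, against 0.20 in the titled Wt arrays, −0.24 on slide 1 and −0.59 on slide 2. The median of 22 matricellular, elastic fibre and proteoglycan genes was −0.07 and turned to 0.35 in the titled Wt arrays, that of 16 genes of collagen folding and crosslinking was −0.13, that of 14 proteases and inhibitors −0.06, and that of 18 TGF-β ligands and receptors 0.08.

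Markers of fibroblasts and macrophages also differed between the arrays. The mean log2 level of 10 measured fibroblast markers of 11 on the array was −0.29 to 0.41 on the sham arrays and −0.33 to 0.09 on the TAC arrays, with both highest values on the titled LXRα-Tg sham arrays. The matrix lists also hold 4 of these markers (Col1a1, Col3a1, Dcn and Lum), and over the 6 they do not hold LXRα-Tg sham 2 was highest (0.38), followed by LXRα-Tg TAC 3 (0.21) and LXRα-Tg sham 1 (0.09). That of 10 macrophage markers of 10 on the array was −0.22 to 0.49 on the sham arrays and −0.28 to 0.05 on the TAC arrays, with the same pair highest. Lgals3, galectin-3, a lectin of activated macrophages, read 49.7, 101, 266 and 452 on the sham arrays and 126, 113, 177 and 121 on the TAC arrays. It was lowest on Wt sham 1 and highest on LXRα-Tg sham 2, with a log2 difference of −0.23 ± 0.42. The part of these markers in the matrix results was not tested.

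**Figure D2:**
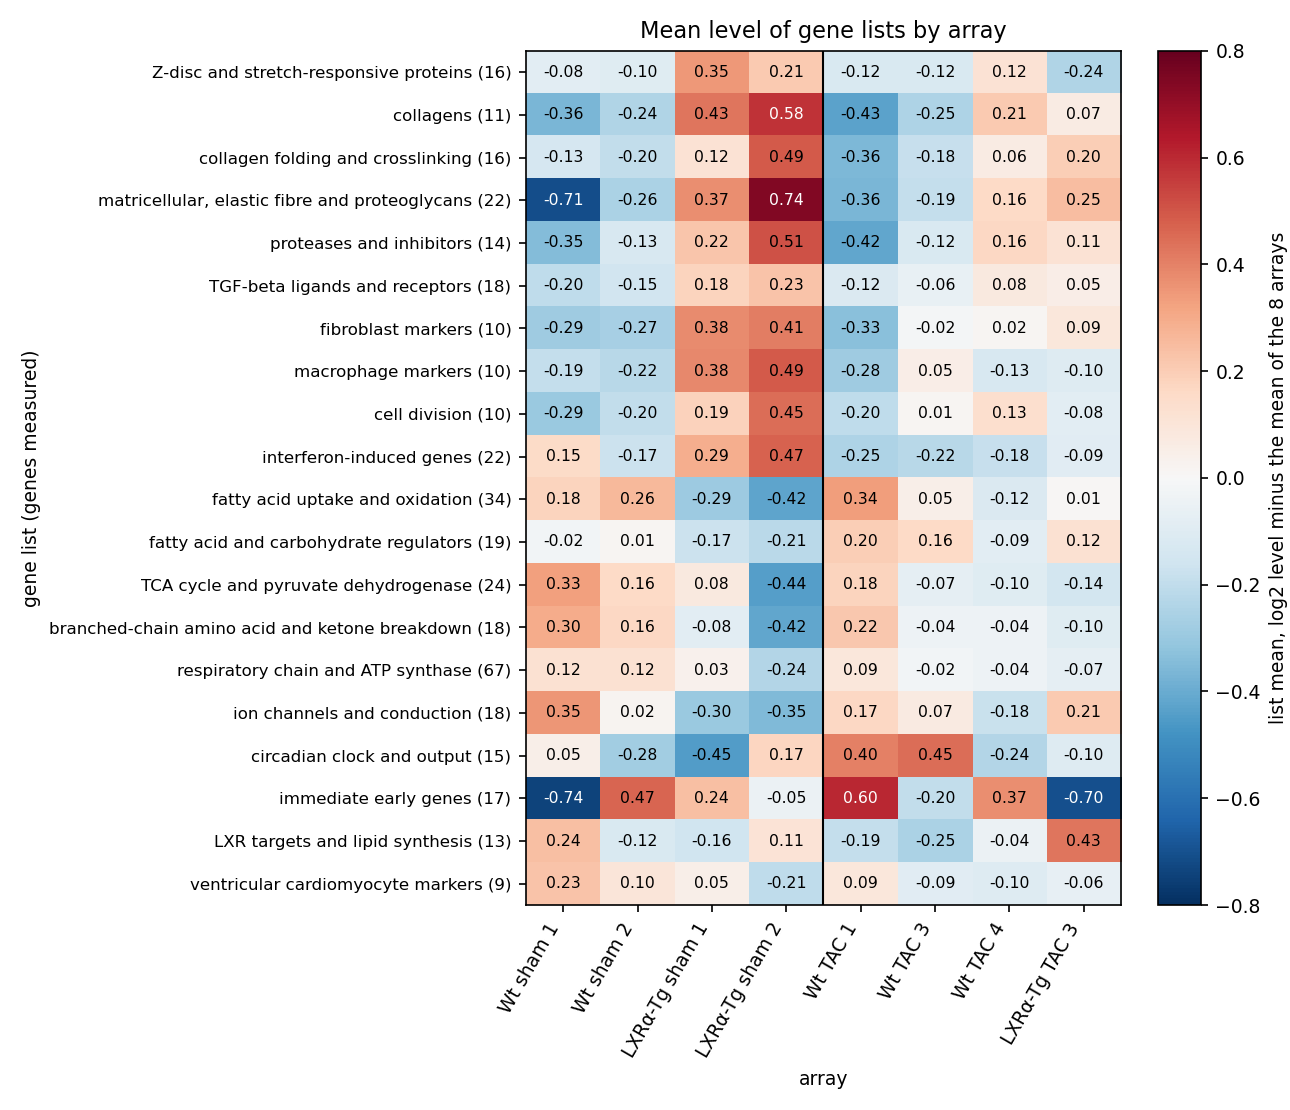
Mean log2 level of each gene list (rows, with the number of genes measured) on each of the 8 arrays (columns), as the difference from the list's mean over the 8 arrays, red for higher and blue for lower. The titled LXRα-Tg sham columns are highest for collagens (0.43 and 0.58) and lowest in fatty acid oxidation (−0.29 and −0.42), and Wt TAC 4 and LXRα-Tg TAC 3 are the higher TAC columns for collagens (0.21 and 0.07).

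Over the list of fatty acid uptake and oxidation the mean log2 level was lowest on the titled LXRα-Tg sham arrays (−0.29 and −0.42) and next on Wt TAC 4 (−0.12). Acot1, a cytosolic thioesterase that releases fatty acids from acyl-CoA, read 563, 1197, 192 and 244 on the sham arrays and 1295, 1087, 677 and 973 on the TAC arrays. The titled LXRα-Tg sham arrays were lowest, and the TAC arrays overlapped the Wt sham arrays. Its log2 difference was 1.16 ± 0.54, 0.77 by the other probe, and −0.03 in the titled Wt arrays. Ces1d, a carboxylesterase that hydrolyses stored lipid, read 2971, 3605, 1275 and 1093 on the sham arrays and 4540.0, 3352, 2172 and 3087 on the TAC arrays. It had the same lowest pair, with Wt TAC 4 next, and log2 differences of 0.67 ± 0.44 over the 8 and −0.26 in the titled Wt arrays. Plin4, a lipid droplet coat protein, had 0.22 ± 0.25 and −0.34. Over 34 genes of fatty acid uptake and oxidation, 23 lay above 0 (67.6%, beside 56.3% over all genes), 0 had an unadjusted p under 0.05, and the median was 0.07, or −0.17 in the titled Wt arrays.

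Regulators of oxidative metabolism had a median of 0.19 over 19 measured genes, 14 of them above 0, and 0.09 to 0.46 over the alternatives. Ppara, the fatty acid-sensing nuclear receptor, read 14.4, 29, 11.6 and 24 on the sham arrays and 47.8, 33.2, 35.8 and 23.1 on the TAC arrays, close to the floor of detection. After normalization all 4 TAC arrays lay above all 4 sham arrays, with a log2 difference of 0.56 ± 0.17. Esrra, the estrogen-related receptor that drives mitochondrial genes, read 1456, 1853, 1377 and 1809 on the sham arrays and 2213, 2174, 1989 and 1892 on the TAC arrays. The TAC arrays exceeded every sham array in signal, though not after normalization, with 0.33 ± 0.14. Ppargc1a, their coactivator PGC-1α, had 0.50 ± 0.30, and Pdk4, the kinase that shuts pyruvate dehydrogenase, −0.02 ± 0.26.

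Glucose genes showed no common direction. Slc2a1, the basal transporter GLUT1, had a log2 difference of 0.17 ± 0.16, Slc2a4, the insulin-responsive GLUT4, −0.13 ± 0.17, and Hk2, the muscle hexokinase, 0.21 ± 0.16. Gyg, the glycogenin that primes glycogen, read 507, 619.8, 942 and 575 on the sham arrays and 416, 377, 417 and 308 on the TAC arrays. Each TAC array lay below each sham array by this probe, with −0.77 ± 0.20, or −0.95 on slide 1 and −0.29 on slide 2. The other probe gave −0.91, but its groups overlapped in signal. It read 223, 303, 608 and 193 on the sham arrays and 240, 135, 185 and 86.1 on the TAC arrays. Every slide 1 array exceeded every slide 2 array by that probe. Over 22 genes of glucose uptake and glycolysis 9 lay above 0, with a median of −0.02. At an unadjusted p under 0.05, 1 lay higher and 3 lower, beside 4.22% and 2.99% over all genes. Ogt, which adds O-GlcNAc to proteins, had −0.18 ± 0.17, and the 5 measured hexosamine genes had a median of −0.10.

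Of 18 measured genes of branched-chain amino acid and ketone breakdown, 2 lay higher on the TAC arrays at an unadjusted p under 0.05 and 1 lower. The shares over all genes were 4.22% and 2.99%. Ivd, the isovaleryl-CoA dehydrogenase of leucine breakdown, read 1722, 1953, 1239.9 and 1905 on the sham arrays and 2557, 2164, 2433 and 2091 on the TAC arrays. Ppm1k, the phosphatase that activates the branched-chain keto acid dehydrogenase, read 839, 969.7, 485 and 735 on the sham arrays and 1441, 1107, 1015 and 889 on the TAC arrays. LXRα-Tg sham 1 was lowest for both, and in signal the groups did not overlap for Ivd and overlapped for Ppm1k. The log2 differences were 0.41 ± 0.17 and 0.54 ± 0.24, and 0.10 and 0.10 in the titled Wt arrays. The list of 18 genes had a median of 0.12. Among 67 genes of the respiratory chain and ATP synthase the median was 0.05, and Ndufc2, a subunit of complex I, was 0.52 ± 0.15, with all TAC arrays above all sham arrays after normalization.

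Dld and Mdh1 had low values that followed the slide. Dld, the dihydrolipoyl dehydrogenase shared by the pyruvate and 2-oxoglutarate complexes, read 142, 201, 524 and 40.3 on the sham arrays and 104, 32.8, 64.6 and 29 on the TAC arrays. Mdh1, the cytosolic malate dehydrogenase, read 1284, 932, 1707 and 601 on the sham arrays and 863, 599, 626 and 295 on the TAC arrays. All 4 slide 1 arrays exceeded all 4 slide 2 arrays in both. The log2 difference of Dld was −1.39 ± 0.60, −0.51 with slide as a block and 0.30 on slide 2, and that of Mdh1 was −0.93 ± 0.38, −0.40 and 0.01. The median of 24 genes of the TCA cycle and pyruvate dehydrogenase was 0.03.

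The channel subunits Cacna2d1, Scn4b and Kcnd2 had values above 0, while the ion channel list as a whole had a median near that of all genes. Cacna2d1, the α2δ subunit of the L-type calcium channel, read 608, 671, 490.1 and 579 on the sham arrays and 1437, 1111, 816 and 902 on the TAC arrays. All 4 TAC arrays exceeded all 4 sham arrays in signal, Wt TAC 1 most, although not in the normalized values. The log2 difference was 0.79 ± 0.21 (adjusted p = 0.682), 0.99 with slide as a block and 0.48 in the titled Wt arrays. Scn4b, a β subunit of the cardiac sodium channel, read 214, 414, 376 and 453 on the sham arrays and 572, 631, 539 and 350.4 on the TAC arrays. Wt sham 1 was lowest, and the groups overlapped in signal but not after normalization, with 0.50 ± 0.15. Kcnd2, which carries the transient outward potassium current, had 0.91 ± 0.38. The 18 genes of ion channels and conduction had a median of 0.05, beside 0.03 over all genes, and 12 lay above 0 (66.7%, beside 56.3%). That median was −0.19 in the titled Wt arrays, −0.01 on slide 1 and 0.28 on slide 2. The 20 genes of calcium cycling, Cacna2d1 among them, had a median of 0.09. Atp2a2, the calcium pump SERCA2a, had −0.09 ± 0.13.

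Kcnj8 and Rgs5, both made by pericytes and smooth muscle of small vessels, also had values above 0. They were the only 2 of 9 measured markers of these cells with an unadjusted p under 0.05. Kcnj8, the pore of the vascular ATP-sensitive potassium channel, read 124, 187, 164 and 233 on the sham arrays and 337, 268, 274 and 215 on the TAC arrays. LXRα-Tg sham 2 overlapped the lowest TAC array in signal, and after normalization all TAC arrays were above all sham arrays. The log2 difference was 0.61 ± 0.12 (adjusted p = 0.682), 0.80 on slide 1, 0.46 on slide 2 and 0.60 in the titled Wt arrays. Rgs5, a regulator of G-protein signalling, read 661, 819, 961 and 838 on the sham arrays and 1493, 1482, 1041 and 1228 on the TAC arrays, with every TAC array above every sham array in signal, though not after normalization, and 0.64 ± 0.18. Rgs5 had 0.59 on slide 1 and 0.90 on slide 2. Of the 9 markers of smooth muscle and pericytes 7 lay above 0 (77.8%, beside 56.3% over all genes). Pdgfrb, another of the 9, had a mean signal of 97.6 on the sham arrays and 70.0 on the TAC arrays. The median of the 9 was 0.15, with −0.12 on slide 1 and 0.44 on slide 2. At an unadjusted p under 0.05, 2 lay higher and 0 lower, beside 4.22% and 2.99% over all genes.

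Known LXR targets did not separate the groups. Scd1, a stearoyl-CoA desaturase induced by LXR in liver, read 546, 278, 211 and 439 on the sham arrays and 171, 126, 366 and 737 on the TAC arrays. LXRα-Tg TAC 3 was highest and Wt TAC 3 lowest, so the TAC arrays spanned the whole sham range, and the log2 difference was −0.26 ± 0.56. Acaca, acetyl-CoA carboxylase 1, had 0.37 ± 0.24. Abca1 and Abcg1, the cholesterol exporters, and Mylip, which degrades the LDL receptor, were detected on 0 of the 8 arrays. The 13 measured genes of the list had a median of −0.08, 6 above 0.

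Immediate early genes respond quickly to stimuli, and clock genes cycle over the day. Jund, a subunit of the AP-1 factor, read 21.6, 28.5, 36.1 and 40.2 on the sham arrays and 49.3, 56.1, 75 and 46 on the TAC arrays. Every TAC array was above every sham array, with 0.69 ± 0.13 (adjusted p = 0.682), and 0.59 with slide as a block. The 17 measured immediate early genes had a median of 0.11, and their mean log2 level was −0.74, 0.47, 0.24 and −0.05 on the sham arrays and 0.60, −0.20, 0.37 and −0.70 on the TAC arrays, lowest on the arrays that lacked Eif2s3y. Per2, a repressor of the circadian clock, read 23, 28.1, 16.6 and 153 on the sham arrays and 138, 174, 64.1 and 49.3 on the TAC arrays. Arntl, the clock activator BMAL1, read 71, 76.7, 108 and 21.7 on the sham arrays and 26.5, 7.2, 41.6 and 36.7 on the TAC arrays. The arrays high for Per2 were low for Arntl, LXRα-Tg sham 2 among them, and the hour of tissue sampling was not given in the sources used here. Their log2 differences were 1.06 ± 0.45 and −0.84 ± 0.41, and on slide 2 −0.38 and 0.42. The 15 clock genes had a median of 0.25, 13 above 0.

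Genes induced by interferon lay lower on the TAC arrays as a list. Of 22 measured, 2 lay above 0, 7 had an unadjusted p under 0.05 and a lower value, 0 a higher one, and all 4 TAC arrays lay below all sham arrays for 4. Over all genes 56.3% lay above 0, 2.99% had an unadjusted p under 0.05 and a lower value, and 1.22% had all TAC arrays below all sham arrays. Ifi47 was counted here although it entered the test through the sham arrays alone, and over the 19 members detected on all 8 arrays the counts were 2 above 0, 5 lower at an unadjusted p under 0.05 and 3 without overlap, with a median of −0.33, beside 57.3%, 2.62%, 1.2% and 0.03 over all genes detected on all 8. The median of the 22 was −0.34, beside 0.03 over all genes, and it was −0.30 in the titled Wt arrays, −0.23 without the titled LXRα-Tg sham arrays, −0.31 on slide 1 and −0.61 on slide 2. The mean log2 level of the list was 0.15, −0.17, 0.29 and 0.47 on the sham arrays and −0.25, −0.22, −0.18 and −0.09 on the TAC arrays. Both titled LXRα-Tg sham arrays and Wt sham 1 were above all TAC arrays, and Wt sham 2 lay among them. The titled LXRα-Tg sham arrays were the 2 highest of the 8 for 9 of the 22 genes, beside 7.7% over all genes.

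Oasl2, a protein related to the oligoadenylate synthetases, read 66, 87.5, 173 and 171 on the sham arrays and 66.8, 51.3, 53.9 and 50 on the TAC arrays. Wt TAC 1 overlapped Wt sham 1 in signal, the remaining TAC arrays were below every sham array, and the log2 difference was −0.83 ± 0.19 (adjusted p = 0.682), with −0.48 by the other probe. Psmb8, a catalytic subunit of the immunoproteasome, read 36.8, 40.9, 98.1 and 89.5 on the sham arrays and 22.1, 38.5, 22.8 and 22.4 on the TAC arrays. Wt TAC 3 overlapped the Wt sham arrays in signal, the titled LXRα-Tg sham arrays were highest, and the log2 difference was −0.80 ± 0.21.

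Igtp and Ifi47 are GTPases induced by interferon-γ. Igtp read 490.4, 231, 515 and 504 on the sham arrays and 221, 244, 259.6 and 186 on the TAC arrays. All sham arrays but Wt sham 2 lay far above all TAC arrays, and Wt sham 2 lay inside the TAC range. Its log2 difference was −0.83 ± 0.27 (adjusted p = 0.682), −1.01 on slide 1, −0.73 on slide 2 and −0.71 in the titled Wt arrays. Ifi47 was near the floor, at 33.5, 13.8, 63.9 and 27.9 on the sham arrays and 9.3, 6.4, 10.9 and 0.5 on the TAC arrays. It was detected on 3 sham arrays and 0 TAC arrays and so passed the filter through the group where it is high, and it was at least 1.3-fold higher on the former against the floor of each TAC array.

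H2-Eb1, a chain of the class II antigen-presenting complex, read 454, 361, 1594 and 2018 on the sham arrays and 511, 449, 384 and 201 on the TAC arrays. Only the titled LXRα-Tg sham arrays were high, the Wt sham arrays lay within the range of the TAC arrays, and the log2 difference of −1.22 ± 0.46 became −0.14 in the titled Wt arrays. Adgre1, which encodes the macrophage surface protein F4/80, read 56.4, 79.1, 152 and 78.7 on the sham arrays and 44.3, 22.4, 40.4 and 10 on the TAC arrays. Each TAC array was below each sham array by this probe, with −1.21 ± 0.27 (adjusted p = 0.682), but its other probe gave −0.17. Of 10 markers of lymphocytes and neutrophils on the array, 3 were detected on any of the 8 arrays. Of the 10 macrophage markers 9 were detected on all 8, 3 lay above 0 and the median was −0.20. The part of leucocytes in the interferon result was not tested.

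**Figure D3:**
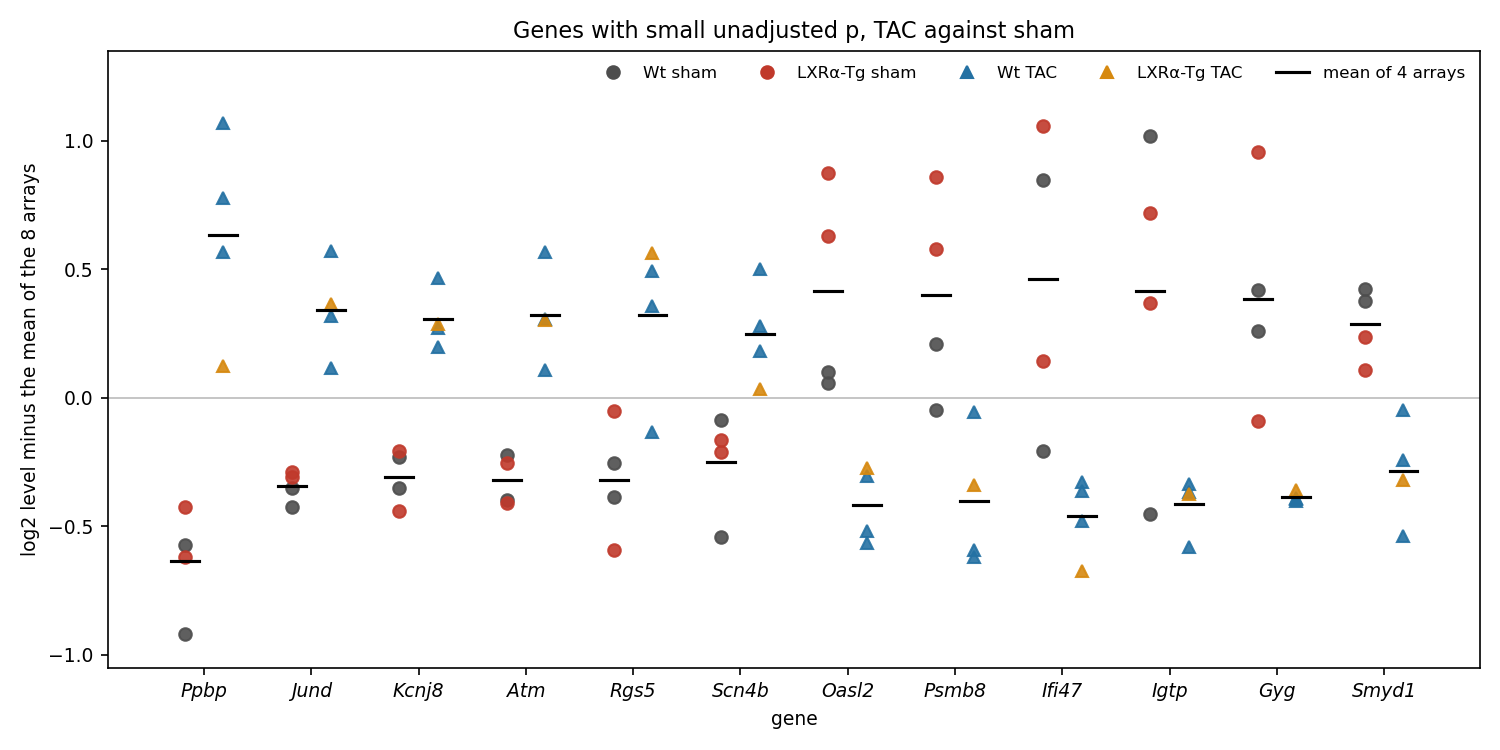
Log2 level of 12 genes on each array, as the difference from the gene's mean over the 8 arrays, with circles for sham, triangles for TAC, colours for the title and a bar for the mean of 4 arrays. Ppbp, Jund, Kcnj8, Atm and Scn4b show all TAC arrays above all sham arrays, Oasl2, Psmb8, Ifi47, Gyg and Smyd1 all below, and Rgs5 and Igtp overlap. Ppbp and Atm were not detected on the sham arrays and Ifi47 not on the TAC arrays, so those points lie at the floor and each of the 3 genes entered the test through 1 group.

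Genes of varied function had the smallest unadjusted p-values, and the filter on detection admitted some of them through 1 group alone. Ppbp, a chemokine of platelets, read 6.4, −4.8, 13.2 and 8.3 on the sham arrays and 41.5, 48.6, 68.1 and 19.5 on the TAC arrays. It was detected on 0 sham arrays and on all 4 TAC arrays, so that it entered the test through the group where it is high, and its adjusted p was 0.66. Set against the floor of each sham array, it was at least 1.62-fold higher on the TAC arrays. Atm, a kinase of the DNA damage response, read 12.5, 12.7, 18 and 15.2 on the sham arrays and 41.4, 30.4, 26.7 and 23.5 on the TAC arrays. It was likewise detected on the 4 TAC arrays alone, and was at least 1.31-fold higher there against the floor. Smyd1, a methyltransferase of striated muscle, read 90.7, 119.7, 116 and 120.3 on the sham arrays and 88.9, 53.3, 74.6 and 50.9 on the TAC arrays. All TAC arrays were below all sham arrays, Wt TAC 1 by the least, and the log2 difference was −0.57 ± 0.14. Of 61 genes with a value in all 28 alternatives, 26, Smyd1 among them, kept their sign and 35 had the other sign in at least 1. Another 11 dim genes, Ppbp, Atm and Ifi47 among them, had a value in 27. Of the 72, 0 passed an adjusted p of 0.05 in any.

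Sham arrays titled LXRα-Tg were compared with sham arrays titled Wt because both had low Nr1h3 (n = 2 each, in a fit of the 8 arrays by title). In this comparison 1 gene passed (0.0134%), at an unadjusted p under 0.05 there were 1220 (16.3%), and 644 of those (8.63%) lay higher on the titled LXRα-Tg sham arrays. The gene was Capg, a capping protein of actin filaments in macrophages and other motile cells, which read 78.6, 114, 435 and 626 on the sham arrays and 157, 177, 195 and 150.4 on the TAC arrays. Capg lay higher by 1.96 ± 0.18 on the log2 scale (adjusted p = 0.0242 by limma). Its titled LXRα-Tg sham arrays exceeded all other arrays, while the TAC arrays lay between them and Wt sham. The call was lost without any 1 of 6 arrays, Wt sham 1 or 2, LXRα-Tg sham 1 or 2, or Wt TAC 1 or 3, and the count was 32 without Wt TAC 4.

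The other values of this comparison had the same arrays apart. Comp differed by 2.87 ± 0.31 (adjusted p = 0.0554), Mgp by 1.80 ± 0.25, H2-Eb1 by 1.82 ± 0.26 and Myh7 by 3.46 ± 0.54, all higher on the titled LXRα-Tg sham arrays. Acot1 differed by −2.19 ± 0.32 and Il15, a cytokine made by muscle, by −1.13 ± 0.18, both lower. The adjusted p was 0.0998 for each of these but Comp. Collagens had a median of 0.76 with 8 of 11 at an unadjusted p under 0.05 and higher, the matricellular list 0.84 with 12 of 22, cell division genes 0.56 with 7 of 10 and fatty acid oxidation −0.43 with 12 of 34 lower. Interferon-induced genes had a median of 0.35 with 8 of 22 higher. Over all genes the median was −0.02, with 8.63% higher and 7.71% lower.

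Over all genes, both titled LXRα-Tg sham arrays lay above the other 6 for 575 (7.7%) and below them for 785 (10.5%). Wt TAC 4 was the next highest array in 183 of the former (31.8%) and the next lowest in 238 of the latter (30.3%), the largest share of the 6. In the list of fatty acid oxidation both titled LXRα-Tg sham arrays were lowest for 14 of 34, and in the matricellular list they were highest for 10 of 22. The first principal component of the 8 arrays held 30.32% of the variance, with Wt sham 1 at one end (−23.4) and LXRα-Tg sham 2 at the other (26.1), and the second held 25.19%, with LXRα-Tg sham 1 highest (30.4).

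The TAC difference was also compared between titles, where LXRα-Tg TAC was a single array assumed to vary like the others. With 0 genes called by limma (0%), 742 had an unadjusted p under 0.05 (9.94%), 375 higher (5.02%) and 367 lower (4.92%) in the titled LXRα-Tg arrays. Myh7 differed by −4.39 between titles (titled LXRα-Tg minus Wt, adjusted p = 0.27), and Ccl12, a chemokine for monocytes, by −2.76. Acot1 differed by 2.57 and Il15 by 1.39 in the other direction. In each of these values the titled LXRα-Tg side rests on 2 sham arrays and that single TAC array. The titled Wt side rests on 2 sham and 3 TAC arrays.

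**Figure D4:**
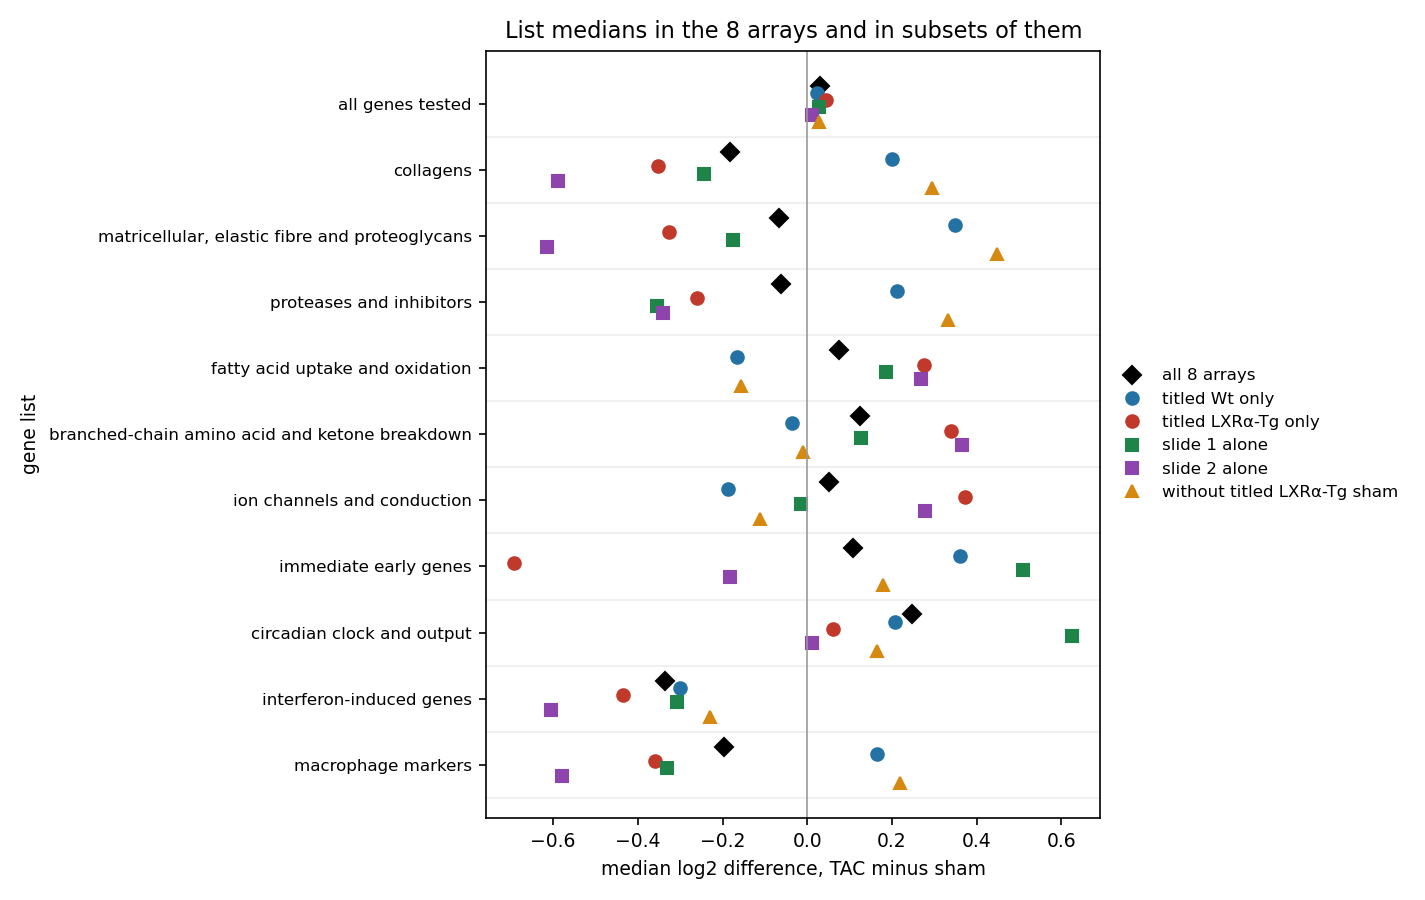
Median log2 difference (TAC minus sham) of 10 gene lists and of all genes, over the 8 arrays and in 5 subsets of them, 1 symbol per subset. Interferon-induced genes lie below 0 in every subset (−0.61 to −0.23), circadian genes above it (0.01 to 0.63), and collagens and the other matrix lists change side between the titled Wt arrays and the 8 arrays.

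The TAC difference of the 8 low arrays was set against that of the 5 arrays with high Nr1h3, in 1 fit over 13 arrays. Of these 5, 2 were titled sham and 3 TAC. By genotype title, 2 of the 5 were Wt, against their high Nr1h3, and 3 LXRα-Tg. By limma 0 genes passed (0%), and 612 had an unadjusted p under 0.05 (8.2%), 285 with the greater difference in the low arrays (3.82%) and 327 with the lesser (4.38%). The smallest p belonged to Eif2ak2, the kinase PKR that halts translation on double-stranded RNA, which differed by 1.64 ± 0.26 (low minus high, adjusted p = 0.176), and the next to Kcnj8 (adjusted p = 0.197). Adgre1 differed by −1.51 and Gyg by −1.28. The interferon list had a median of 0.18 in this comparison and collagens −0.28, beside 0.05 over all genes. The count was 15 without LXRα-Tg sham 2, 3 without LXRα-Tg sham 3 and 1 without Wt sham 3.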

How the data were processed

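The authors deposited, for 25697 probes and 13 arrays, a signal intensity with background subtracted but no normalization between arrays (GenomeStudio 2011.1 by the submitters' processing notes), and a detection p-value per probe. Their second deposited table holds processed intensity values with 1 median of 6.5 on every array, on the same scale and in the same direction, and was used as an alternative. The tool for that step was not given in the sources used here. Symbols came from the platform table: 23978 probes have 1 symbol and 1719 none.

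Signals were corrected with neqc (offset 16) in limma 3.58.1 and R 4.3.3 over all 13 arrays. A probe entered if detected at p under 0.01 on at least 3 of the 8 arrays (9870 probes), and each of 7466 genes was read from its brightest probe by mean. Log2 values were fitted with lmFit and eBayes and adjusted by Benjamini and Hochberg, called under 0.05. The median detected signal was 6.48 to 7.96 times the lowest, and the number of arrays limits precision. The steps were tested on simulated data. Figures were drawn with matplotlib 3.10.9 in Python 3.11.15. No probe coordinates were used.

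Other settings tried were the background correction, scaling by the median, the authors' values, normalizing the 8 arrays alone, 3 filters on dim probes, averaged probes, slide as a block or random block, each slide alone, array weights, each array left out, the arrays lacking Eif2s3y left out, titled genotype as covariate or each title alone, 1 fit over 13 arrays, a fold minimum of 1.5 and the t-test of the methods. Added after the values were seen were the fits without the titled LXRα-Tg sham arrays and with atrial markers as a covariate.

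The genes named are a fixed set of overload, LXR and metabolic genes, the 10 with the largest change (or smallest unadjusted p) per direction in each comparison, and up to 4 members of each list by unadjusted p. Abca1, Abcg1 and Mylip are named for being undetected. The 8 arrays, the genes and the lists were chosen with earlier results of these data known.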

Additional observations from a re-analysis of the deposited data

Results flagged for a closer look

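Within 1 group of 4 arrays, a single array stood apart from the other 3 in 10 of 218 groups tested. The rule was a gap to the nearest array, over the whole range, above Dixon's 95% limit. Chance flags about 1 in 20, so the count is no more than chance would give. The flags below are listed as values only. Wt sham 1 was lowest of the sham arrays for Sln, at a log2 level of 4.30 against 8.86 for the next (ratio 0.840), and for Myl4, at 7.11 against 11.60 (0.925). LXRα-Tg sham 1 was highest for Col3a1, at 7.51 against 5.85 (0.976), and LXRα-Tg sham 2 for Ppp3ca, at 8.93 against 8.68 (0.844). Among the TAC arrays, Wt TAC 4 was highest for Ankrd1, at 13.76 against 13.33 (0.844), and lowest for Acot1, at 9.23 against 10.01 (0.831), and for Hk2, at 12.33 against 12.62 (0.874). Wt TAC 3 was lowest for Myh6, at 14.29 against 14.54 (0.866). Wt TAC 1 was lowest for Igtp, at 7.71 against 7.91 (0.840), and highest for the mean of the oxidative stress and glutathione list, at 0.04 against −0.01 (0.886).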

How the results depend on the processing

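For TAC against sham, 0 genes passed in any alternative that adjusts p. The count was 538 at an unadjusted p under 0.05, 525 with the methods' t-test before adjustment, and 284 by groups that did not overlap. For the difference of the TAC effects between low and high Nr1h3 arrays the count was 612 unadjusted, 1 with array weights (Eif2ak2) and 0 to 15 with each array left out, the 15 without LXRα-Tg sham 2, 3 without LXRα-Tg sham 3 and 1 without Wt sham 3.

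For titled LXRα-Tg sham against titled Wt sham the count was 1220 unadjusted, 15 with an offset of 50 (11 higher, 4 lower), 68 with median scaling (62 higher, 6 lower), 2 with slide as a block, 2 with slide as a random block, 0 with the authors' values, 0 without a filter and 0 without the 2 arrays lacking Eif2s3y. With each array left out it was 0 to 32, the 32 without Wt TAC 4 and 6 without Wt sham 2. Median scaling moved the median of all genes to 0.17 in that comparison and to −0.44 in the difference between titles, where the count was 742 unadjusted, 1 with median scaling (H2-Eb1), 1 with slide as a block (Gdpd3) and 0 to 2 with each array left out. The cause of these shifts was not tested. Low signals limit Ppara, Gata4, Jund, Atm, Ppbp and Ifi47, which lay near the lowest detected signal on some arrays. No paired analysis was possible because the titles carry no replicate numbers.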

Other observations

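Some transcripts of other organs were present at array-specific levels, and others were not detected. Ttr, transthyretin, a carrier protein secreted by liver, read 297, 687, 141 and 448 on the sham arrays and 102, 60.4, 1127 and 303 on the TAC arrays. Wt TAC 4 was highest and Wt TAC 3 lowest, so the TAC arrays spanned the sham range. Of 8 liver markers on the array, 6 were detected on all 8 arrays, while Alb (albumin) and Fgb (a fibrinogen chain) were detected on 0. Over those 6 markers the mean log2 level was −1.41 to 0.90 on the sham arrays and −1.45 to 1.63 on the TAC arrays. Their median log2 difference between TAC and sham was −0.35, with −1.45 on slide 1 and −0.38 on slide 2. Of 7 kidney markers on the array, 5 were detected on some array and 0 on all 8.

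The oxidative stress and glutathione list (33 genes) had a median of −0.02 and the unfolded protein and ATF4 response (20 genes) −0.10. Cytosolic ribosomal proteins (41 genes) had −0.08 and heat shock proteins (19 genes) −0.15. Of these 19, 3 were lower and 0 higher at an unadjusted p under 0.05, beside 2.99% and 4.22% over all genes. However, 1 of the 19 was detected in 1 group alone. Among the 16 detected on all 8 arrays 1 was lower, beside 2.62% over all such genes, and the median was −0.115. Chemokines and cytokines (22 genes) had 0.04, the creatine and high-energy phosphate list (9 genes) −0.03, cell division genes (10) −0.07 and endothelial markers (12) 0.12.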
